A study of Homo sapiens with 12 samples.

Results

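The data described here are the RNA levels of 10 genes that encode brakes on mitogen-activated protein kinase (MAPK) signalling, measured in SH-SY5Y cells, an established human neuroblastoma line often used as a neuronal cell model. The members were the dual-specificity phosphatase genes DUSP1, DUSP4, DUSP5, DUSP6 and DUSP8, the Sprouty genes SPRY1, SPRY2 and SPRY4, and the Sprouty-related genes SPRED1 and SPRED2. They were chosen by symbol, through the Ensembl identifier of each row of the count table with its version removed, and each symbol matched 1 of the 60710 genes listed. All 10 passed the filter on low counts that left 16366 genes for testing. The study, on activators of the antioxidant factor NRF2, asked how the transcriptome answers to 3 compounds, HPPE, zinc protoporphyrin and tin protoporphyrin. Zinc and tin protoporphyrin are forms of the heme ring that carry another metal in place of iron, and the labels do not spell out HPPE. The 12 libraries formed 4 groups of 3: a control that received 10 µL of DMSO alone, and HPPE, zinc protoporphyrin or tin protoporphyrin given at 5 µM in 10 µL of DMSO. All wells held 2 mL of medium in 6-well plates and were lysed after 5 h, so each compound was seen at a single dose and a single time. Nothing in the labels says whether the 3 libraries of a group came from separate cultures, and the p-values therefore measure only the spread between these libraries.

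Growth factor receptors activate RAS, which switches on the kinases RAF, MEK and ERK in turn, and the related JNK and p38 kinases answer mainly to stress. The DUSP genes encode phosphatases that remove the activating phosphates from these kinases, the Sprouty proteins act between the receptor and RAF, and the SPRED proteins bring the RAS inactivator neurofibromin to the membrane. Many of these genes are themselves transcribed when ERK is active, which makes them a negative feedback loop, and in neuroblastoma the RAS-ERK route is activated by mutation in some tumours.

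SPRY1 rose most among the 10 genes: its mean level with HPPE, zinc protoporphyrin and tin protoporphyrin was 3.36-fold, 2.78-fold and 3.38-fold that in the DMSO control in the fitted model. SPRY4 also rose with each compound, by 1.34-fold to 1.40-fold. DUSP1 and SPRY2 rose with HPPE and tin protoporphyrin, DUSP4 rose with zinc and tin protoporphyrin, and DUSP5 rose with HPPE. DUSP6, DUSP8, SPRED1 and SPRED2 passed the test in no comparison, and no member was called lower with any compound. These 3 comparisons share the 3 DMSO libraries and are not independent of each other.

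A gene was called when edgeR's quasi-likelihood test gave a Benjamini-Hochberg adjusted p under 0.05 over all 16366 genes. With HPPE, 5 of 10 members were called higher and 0 lower, where 2.57% of all genes were called higher and 1.47% lower. Zinc protoporphyrin gave 3 of 10 called higher and 0 lower, against 1.84% and 0.415% of all genes. With tin protoporphyrin 5 of 10 were called higher and 0 lower, against 1.9% and 0.379% of all genes. At an unadjusted p under 0.05 the counts were 8, 5 and 8 of 10 for HPPE, zinc and tin protoporphyrin, beside 17.7%, 18.6% and 14.7% of all genes. All 3 libraries of the compound lay above all 3 of the control for 8 members with HPPE, 6 with zinc protoporphyrin and 7 with tin protoporphyrin, beside 11.9%, 11.6% and 10.3% of all genes. The median log2 fold change of the members was 0.34 with HPPE, 0.39 with zinc protoporphyrin and 0.44 with tin protoporphyrin. Over all genes tested the medians were 0.02, -0.00 and 0.01. A single test of any difference among the 4 groups called 5 of 10 members (DUSP1, DUSP4, SPRY1, SPRY2 and SPRY4), where it called 7.18% of all genes. SPRY1 ranked 12 of 16366 genes by p in that test (adjusted p = 2.47e-07).

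**Figure D1:**
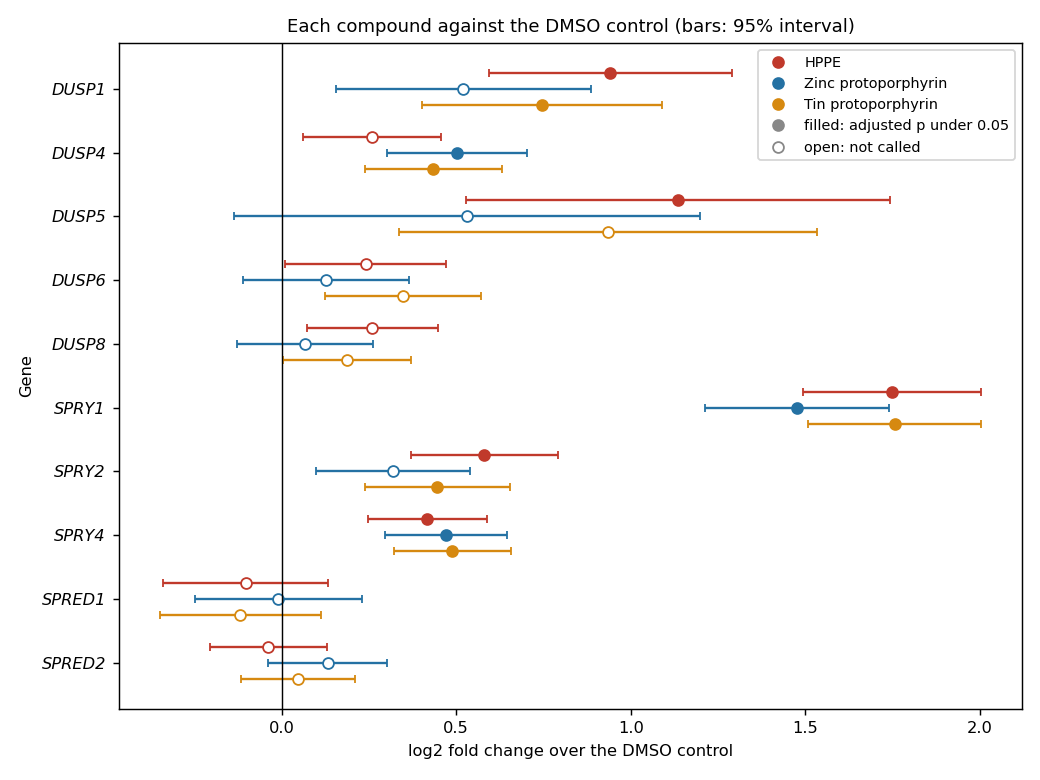
Log2 fold change of each member over the DMSO control (x axis) with its 95% interval, for HPPE, zinc protoporphyrin and tin protoporphyrin; filled points passed an adjusted p of 0.05 and open points did not. The 3 SPRY1 points stand between 1.48 and 1.76, and the points of SPRED1 and SPRED2 lie close to 0.

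Depth and library quality varied. Total counts ran from 1337028 to 9145399, with zinc protoporphyrin replicate 1, DMSO replicate 3 (1514595) and HPPE replicate 3 (3141853) the shallowest. Libraries also differed by transcript length, within groups and between them: across 10952 genes, the Spearman correlation between length and a library's deviation from each gene's mean over the 12 libraries ran from -0.54 in tin protoporphyrin replicate 1 to 0.57 in zinc protoporphyrin replicate 3, a description over genes that are not independent replicates. Markers of the noradrenergic neuroblastoma state were abundant (GATA3 550 to 705 CPM, the library-size-normalized count with TMM scaling, and HAND2 605 to 913 CPM), except that TH was at or under a floor of 3 counts in all 12 libraries and at 0 in 8. Of the markers of other cell types, CD3E and LYZ were at 0 in all 12 libraries and PECAM1 and CDH5 in 11. Not all such markers were silent. The epithelial marker KRT18 ran from 7.805 to 11.018 CPM and was above the floor in all 12 libraries. EPCAM, also epithelial, had a median of 1.2585 CPM and was at or under the floor in 2 libraries. The endothelial marker VWF reached 1.5058 CPM and was at or under the floor in 5 libraries. The summed level of 8 mesenchymal or Schwann-like markers was 748 to 845 CPM in the DMSO libraries, 907 to 930 with HPPE, 849 to 947 with zinc protoporphyrin and 961 to 1010 with tin protoporphyrin, with FOSL2 called higher with each compound, COL1A2 with zinc and tin protoporphyrin, and PRRX1 at 0 in 11 libraries. The summed level of 10 noradrenergic markers was 3887 to 4226 CPM in the control libraries, 3731 to 3781 with HPPE, 3274 to 3707 with zinc protoporphyrin and 3572 to 3930 with tin protoporphyrin. The part of these shifts in the members' results was not tested. In bulk RNA a change in the share of cells that express a gene and a change in RNA per cell cannot be told apart.

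SPRY1 encodes a Sprouty protein that restrains receptor tyrosine kinase signalling, and is annotated on chr4:123396795-123403760, plus strand (GENCODE 29, GRCh38). Its levels in the 3 DMSO libraries were 10.7, 11.4 and 13.4 CPM. With HPPE they were 37.1, 39.1 and 38.3 CPM, with zinc protoporphyrin 35.4, 33.6 and 28.3 CPM, and with tin protoporphyrin 39.0, 37.5 and 38.7 CPM. Every library given a compound exceeded every control library by a wide margin, and among the treated libraries the lowest was zinc protoporphyrin replicate 3, the one with the strongest positive length trend. The log2 fold change was 1.75 ± 0.12 (SE, n = 3 per group) with HPPE, and the edgeR adjusted p was 7.62e-08. For zinc protoporphyrin it was 1.48 ± 0.13 (adjusted p = 4.27e-06). For tin protoporphyrin it was 1.76 ± 0.12 (adjusted p = 2.92e-07), the gene with the second smallest p in that comparison. The fold had a 95% interval of 2.82 to 4.01 with HPPE, 2.32 to 3.34 with zinc protoporphyrin and 2.84 to 4.01 with tin protoporphyrin. These calls held in every alternative fit that was run, with log2 values of 1.69 to 1.79 for HPPE, 1.41 to 1.58 for zinc protoporphyrin and 1.69 to 1.80 for tin protoporphyrin.

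SPRY4, a Sprouty gene on chr5:142310427-142326455, minus strand, encodes a Sprouty protein that acts on the same receptor route. The control libraries held 82.4, 83.7 and 86.1 CPM. Levels were 118, 110 and 107 CPM with HPPE, 130, 114 and 110 CPM with zinc protoporphyrin and 116.98, 123.97 and 111.46 CPM with tin protoporphyrin. The control libraries lay within a narrow band and all 9 treated libraries lay above it. The log2 fold change was 0.42 ± 0.08 with HPPE (edgeR adjusted p = 0.00599), 0.47 ± 0.08 with zinc protoporphyrin (adjusted p = 0.00578) and 0.49 ± 0.08 with tin protoporphyrin (adjusted p = 0.00203). The tin protoporphyrin call held in every alternative, while the HPPE call was lost without DMSO replicate 1 (0.40, adjusted p = 0.0504) and the zinc protoporphyrin call without DMSO replicate 2 (0.47, adjusted p = 0.0517).

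SPRY2, on chr13:80335976-80340951, minus strand, encodes a further Sprouty protein, known to bind the ubiquitin ligase CBL. The control libraries held 33.3, 31.5 and 31.9 CPM. Levels were 46.1, 50.7 and 48.1 CPM with HPPE, 41.4, 43.0 and 37.3 CPM with zinc protoporphyrin and 46.7, 39.9 and 45.8 CPM with tin protoporphyrin. No treated library overlapped the control, and the zinc protoporphyrin libraries were nearest to it. SPRY2 rose with HPPE by 0.58 ± 0.10 on the log2 scale (edgeR adjusted p = 0.00211) and with tin protoporphyrin by 0.45 ± 0.10 (adjusted p = 0.0212). With zinc protoporphyrin the value was 0.32 ± 0.10 (adjusted p = 0.117), which was not called. The HPPE call held in every alternative. The tin protoporphyrin call was lost in 6 of 16, among them the fit of the 2 compared groups alone (adjusted p = 0.108) and those without DMSO replicate 1 (0.0759), DMSO replicate 2 (0.156), tin protoporphyrin replicate 1 (0.065) or tin protoporphyrin replicate 3 (0.102).

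**Figure D2:**
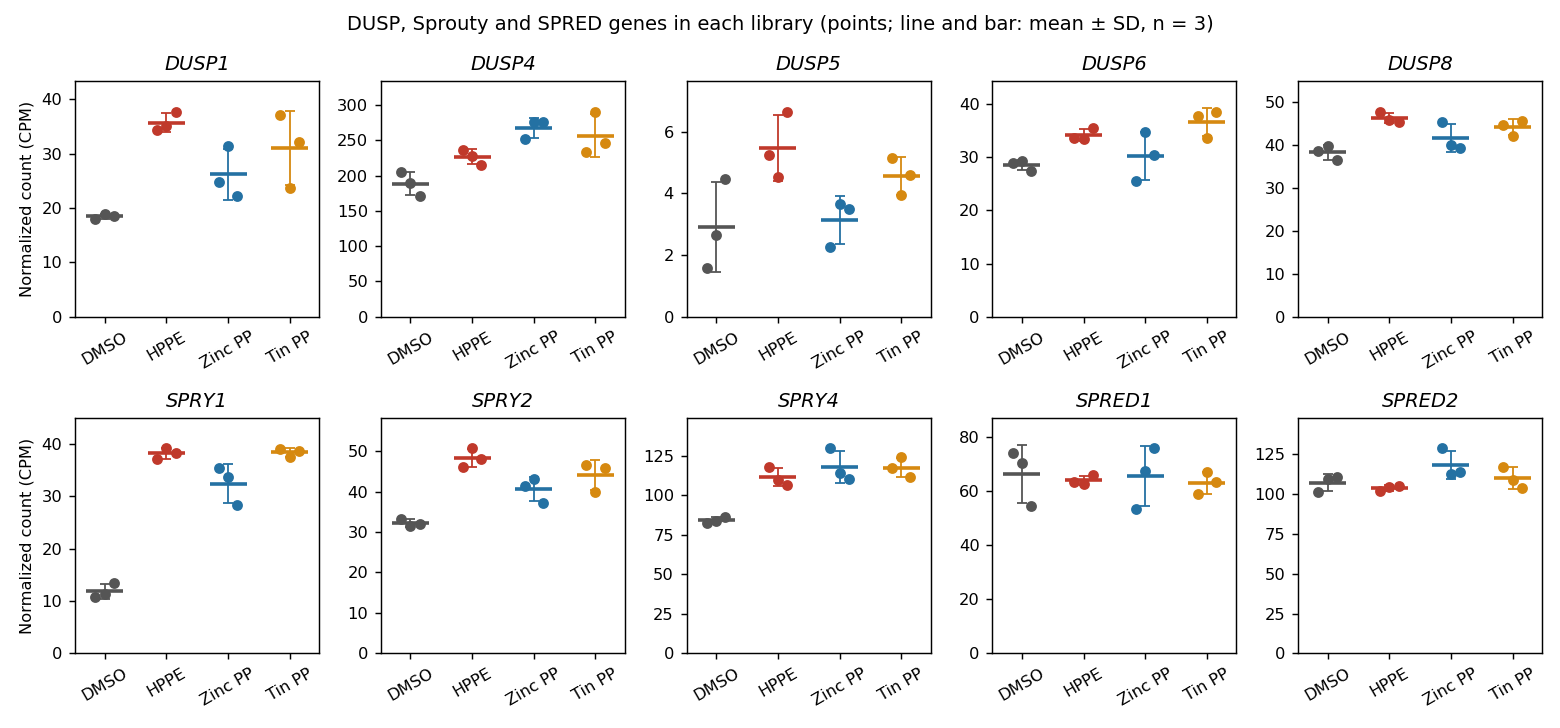
Normalized level of each member in CPM (y axis, from 0) in each of the 12 libraries (points), with the mean and SD of the 3 libraries of each group. The control points of SPRY1 sit between 10.7 and 13.4 CPM and all treated points between 28.3 and 39.1 CPM, while the SPRED1 points of all 4 groups overlap and the SPRED2 points of zinc protoporphyrin lie just above those of the control.

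DUSP1, on chr5:172768090-172771195, minus strand, encodes an inducible nuclear phosphatase that acts on p38, JNK and ERK and is a classical immediate early gene. Its control libraries held 18.0, 18.9 and 18.5 CPM. Levels were 34.3, 35.1 and 37.7 CPM with HPPE, 24.8, 31.4 and 22.3 CPM with zinc protoporphyrin and 37.2, 23.7 and 32.1 CPM with tin protoporphyrin. The HPPE libraries were tightly grouped, whereas the lowest zinc and tin protoporphyrin libraries (zinc replicate 3 and tin replicate 2) were the ones with the most positive length trends (0.57 and 0.52). DUSP1 rose with HPPE by 0.94 ± 0.17 on the log2 scale (edgeR adjusted p = 0.00248), a 1.92-fold change with a 95% interval of 1.51 to 2.44. With tin protoporphyrin it rose by 0.75 ± 0.16 (adjusted p = 0.0198), and with zinc protoporphyrin the value was 0.52 ± 0.17 (adjusted p = 0.123). The HPPE call held in every alternative. With tin protoporphyrin it was lost in 6 of 16, including those without DMSO replicate 1 (adjusted p = 0.112), DMSO replicate 2 (0.107), tin protoporphyrin replicate 1 (0.0629) or tin protoporphyrin replicate 3 (0.0783), and when only the 2 compared groups were fitted (0.103).

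DUSP4, on chr8:29333064-29350668, minus strand, encodes a nuclear phosphatase of ERK and JNK. Its control libraries held 205, 190 and 172 CPM. Levels were 237, 228 and 216 CPM with HPPE, 251, 277 and 276 CPM with zinc protoporphyrin and 233, 291 and 246 CPM with tin protoporphyrin. The treated libraries all lay above the control, with zinc protoporphyrin as the highest group and HPPE as the lowest of the 3 compounds. DUSP4 rose with zinc protoporphyrin by 0.50 ± 0.09 on the log2 scale (edgeR adjusted p = 0.00949) and with tin protoporphyrin by 0.43 ± 0.09 (adjusted p = 0.0173). The HPPE value of 0.26 ± 0.09 was not called (adjusted p = 0.149), but a fit with offsets for transcript length and GC content called it (0.31, adjusted p = 0.00461). The zinc protoporphyrin call was lost without DMSO replicate 2 (adjusted p = 0.074), zinc replicate 2 (0.0504) or zinc replicate 3 (0.0777), and the tin protoporphyrin call without DMSO replicate 2 (0.104) or tin replicate 3 (0.0527) and with the 2 groups fitted alone (0.162).

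DUSP5, on chr10:110497838-110511544, plus strand, encodes a nuclear phosphatase specific for ERK and had the fewest counts of the members. The control libraries held 1.59, 2.64 and 4.47 CPM, which were 12, 20 and 7 counts. Levels were 5.25, 4.54 and 6.65 CPM with HPPE, 2.26, 3.66 and 3.49 CPM with zinc protoporphyrin and 5.16, 3.94 and 4.59 CPM with tin protoporphyrin. The HPPE libraries lay just above the highest control library, the shallow DMSO replicate 3, and the other compounds' libraries overlapped the control. Zinc protoporphyrin replicate 1 rested on 3 counts, the floor used here. The fitted log2 fold change with HPPE was 1.14 ± 0.29 (edgeR adjusted p = 0.0320), in a model that gives deep libraries more weight. With zinc protoporphyrin it was 0.53 ± 0.32 (adjusted p = 0.383) and with tin protoporphyrin 0.93 ± 0.28 (adjusted p = 0.109). The HPPE call was lost in 8 of 17 alternatives: DESeq2 (adjusted p = 0.0656), the replicate block (0.0736), HPPE replicates 2 and 3 taken as 1 library (0.0588), and without DMSO replicate 1 (log2 value 0.79, adjusted p = 0.324), DMSO replicate 2 (0.108) or HPPE replicate 1 (0.0857), 2 (0.065) or 3 (0.105).

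DUSP6, on chr12:89347232-89353271, minus strand, encodes the cytoplasmic phosphatase of ERK and is a widely used readout of ERK activity. Its control libraries held 28.8, 29.3 and 27.4 CPM. Levels were 33.6, 33.4 and 35.5 CPM with HPPE, 25.6, 34.7 and 30.4 CPM with zinc protoporphyrin and 37.7, 33.6 and 38.5 CPM with tin protoporphyrin. The HPPE and tin protoporphyrin libraries lay above the control and the zinc protoporphyrin libraries overlapped it. The log2 fold changes of 0.24 ± 0.11, 0.13 ± 0.11 and 0.35 ± 0.11 had edgeR adjusted p-values of 0.260, 0.575 and 0.113 for HPPE, zinc and tin protoporphyrin, so DUSP6 was not called. With tin protoporphyrin it was called in 3 alternatives: length and GC offsets (adjusted p = 0.0294), the library axis as a term (0.0153), and without tin protoporphyrin replicate 2 (0.0492). An antisense gene, AC024909.2, overlaps exons of DUSP6 and held 45 counts over the 12 libraries against 2601 for DUSP6; whether strand was used in counting is not given in the sources used here.

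DUSP8, on chr11:1554044-1571920, minus strand, encodes a phosphatase that prefers JNK and p38 and is enriched in brain. Its control libraries held 38.6, 39.7 and 36.4 CPM. Levels were 47.6, 45.7 and 45.3 CPM with HPPE, 45.2, 39.9 and 39.2 CPM with zinc protoporphyrin and 44.7, 42.0 and 45.5 CPM with tin protoporphyrin. HPPE and tin protoporphyrin libraries stood above the control without passing the adjusted threshold, and those of zinc protoporphyrin overlapped it. The log2 fold changes were 0.26 ± 0.09, 0.07 ± 0.09 and 0.19 ± 0.09, with edgeR adjusted p-values of 0.121, 0.821 and 0.332. With the library axis as a term, DUSP8 was called with HPPE (0.25, edgeR adjusted p = 0.0307).

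SPRED1, on chr15:38252326-38357249, plus strand, is the gene lost in Legius syndrome, a disorder of RAS signalling. Its control libraries held 74.1, 70.5 and 54.2 CPM, a wider spread than any treated group except zinc protoporphyrin. Levels were 63.3, 62.6 and 65.9 CPM with HPPE, 53.5, 67.3 and 75.7 CPM with zinc protoporphyrin and 58.8, 67.0 and 63.2 CPM with tin protoporphyrin. All groups overlapped. The log2 fold changes were -0.10 (95% interval -0.34 to 0.13), -0.01 (-0.25 to 0.23) and -0.12 (-0.35 to 0.11) for HPPE, zinc and tin protoporphyrin, and the smallest edgeR adjusted p was 0.669. SPRED2, on chr2:65310851-65432637, minus strand, encodes the other measured SPRED protein among the members. Its control libraries held 101.2, 109.3 and 111.0 CPM, and those with HPPE 102, 105 and 105 CPM. Levels were 129, 113 and 114 CPM with zinc protoporphyrin and 117.2, 109.2 and 104.0 CPM with tin protoporphyrin. The zinc protoporphyrin libraries lay just above the control and the others overlapped it. Its log2 fold changes were -0.04 (-0.20 to 0.13), 0.13 (-0.04 to 0.30) and 0.05 (-0.12 to 0.21), with edgeR adjusted p-values of 0.848, 0.398 and 0.844. These intervals cover 0 and exclude, for both SPRED genes and every compound, a change as large as that fitted for SPRY1.

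Levels can be set beside each other between genes only per length, here as CPM per kb of the exons merged over each gene's transcripts in GENCODE 29. In the DMSO control DUSP4 was the highest member at 26.0 ± 2.29 CPM per kb (SD, n = 3), followed by SPRED2 at 20.8 ± 1.02. SPRY4 at 12.8, SPRY2 at 10.6 and DUSP1 at 9.14 CPM per kb came next, each without overlap with its neighbour. DUSP8 at 8.28 and SPRED1 at 8.02 CPM per kb overlapped and could not be ordered. SPRED1 also overlapped DUSP1, with its highest library at 8.97 and the lowest DUSP1 library at 8.91 CPM per kb. DUSP6 followed at 6.16, SPRY1 at 2.98 ± 0.35 and DUSP5 at 1.11 ± 0.56 CPM per kb. With HPPE, SPRY1 reached 9.64 ± 0.25 CPM per kb, overlapping DUSP8 (10.0) and exceeding SPRED1 (7.74). DUSP1 reached 17.7 ± 0.88 CPM per kb with HPPE, where it overlapped SPRY4 (17.0), while SPRY4 overlapped SPRY2 (15.9). With zinc protoporphyrin SPRY1 stood at 8.18 ± 0.94 CPM per kb, overlapping DUSP8 (8.98), SPRED1 (7.92) and DUSP6 (6.53). With tin protoporphyrin SPRY1 stood at 9.69 ± 0.21, overlapping DUSP8 (9.54). DUSP4 and SPRED2 stayed the highest and DUSP5 the lowest member in each group, without overlap with the neighbouring gene.

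Promoter sequences are shown for SPRY1, the member that changed most, for SPRY4, called with each compound, and for DUSP1 and DUSP8, which share a motif although DUSP1 was called and DUSP8 was not. They come from RefSeq (GRCh38.p14). Each runs 5′ to 3′ on the gene's strand from 250 bases before to 50 bases after an annotated start. The search covered 12 entries from 8 of the 10 members, and no window of DUSP4 or DUSP5 was searched. Capitals mark matches to the motifs searched on both strands: the cAMP response element (CRE) TGACGTCA, the AP-1 site TGANTCA, the antioxidant response core TGACNNNGC that NRF2 can bind, the heat shock unit GAANNTTC and the SRF CArG box. The CRE and the antioxidant core both begin with TGAC and can overlap, but no capitals shown belong to both motifs.
SPRY1, start 1, chr4:123396545-123396844, plus strand: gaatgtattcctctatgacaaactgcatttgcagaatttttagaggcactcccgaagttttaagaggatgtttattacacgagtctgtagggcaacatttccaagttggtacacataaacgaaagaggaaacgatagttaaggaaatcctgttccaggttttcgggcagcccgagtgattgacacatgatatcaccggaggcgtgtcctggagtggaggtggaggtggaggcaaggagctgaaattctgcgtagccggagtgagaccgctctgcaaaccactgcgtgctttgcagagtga
SPRY1, start 2, chr4:123398136-123398435, plus strand: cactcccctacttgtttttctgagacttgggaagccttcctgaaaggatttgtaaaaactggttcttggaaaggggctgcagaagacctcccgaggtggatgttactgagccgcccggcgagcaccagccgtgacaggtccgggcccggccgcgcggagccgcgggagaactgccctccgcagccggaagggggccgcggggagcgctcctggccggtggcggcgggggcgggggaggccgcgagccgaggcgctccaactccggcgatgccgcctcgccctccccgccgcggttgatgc
SPRY4, chr5:142324198-142324497, minus strand: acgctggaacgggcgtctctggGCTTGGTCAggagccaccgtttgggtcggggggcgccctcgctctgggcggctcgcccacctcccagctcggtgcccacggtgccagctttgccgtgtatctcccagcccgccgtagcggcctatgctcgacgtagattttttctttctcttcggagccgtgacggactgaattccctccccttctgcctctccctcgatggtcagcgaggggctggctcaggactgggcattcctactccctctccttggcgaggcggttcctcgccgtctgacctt
DUSP1, chr5:172771146-172771445, minus strand: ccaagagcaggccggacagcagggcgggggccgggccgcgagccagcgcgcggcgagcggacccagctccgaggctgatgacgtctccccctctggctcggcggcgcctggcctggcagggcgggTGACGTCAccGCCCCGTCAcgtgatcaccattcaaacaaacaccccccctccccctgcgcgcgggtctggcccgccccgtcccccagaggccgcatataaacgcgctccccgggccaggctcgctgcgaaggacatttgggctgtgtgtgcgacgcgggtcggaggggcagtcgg
DUSP8, chr11:1572222-1572521, minus strand: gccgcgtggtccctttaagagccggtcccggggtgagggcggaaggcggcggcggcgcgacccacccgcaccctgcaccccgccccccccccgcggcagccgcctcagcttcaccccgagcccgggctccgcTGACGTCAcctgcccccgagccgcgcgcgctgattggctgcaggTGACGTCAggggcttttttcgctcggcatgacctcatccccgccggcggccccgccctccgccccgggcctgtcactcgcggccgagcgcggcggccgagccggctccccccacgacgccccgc
Neither SPRY1 window held any of the 5 motifs, nor did the windows of SPRY2, SPRED1 and DUSP6. The DUSP1 window held a CRE that begins 125 bases before the start and, 2 bases after its end, an antioxidant core on the reverse strand (GCCCCGTCA, 115 bases before the start). The DUSP8 window held CREs at 118 and 74 bases before the start. The SPRY4 window held an antioxidant core on the reverse strand, GCTTGGTCA, 228 bases before the start. One of the SPRED2 windows held AP-1 sites at 6 bases before and 34 bases after the start. Of 35116 RefSeq promoter windows of this length, 1.85% held the CRE, 7.71% the AP-1 site, 13.3% the antioxidant core, 6.77% the heat shock unit and 1.29% the CArG box. A match is a description of letters only. Of the RefSeq starts searched, only that of DUSP1 and start 1 of SPRY1 match the outermost start of the gene in GENCODE 29. Start 2 of SPRY1 and the starts of SPRY2, SPRY4, SPRED1, SPRED2, DUSP6 and DUSP8 differ from it. The SPRED2 window with the AP-1 sites (chr2:65366729-65367028) lies inside the gene.

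The compounds were compared with each other at the same dose and time in 3 pairs. Zinc and tin protoporphyrin differ in the metal held by the ring. None of the 10 members was called in any pair by edgeR. Over all genes 12.7% were called between HPPE and zinc protoporphyrin, 1.45% between HPPE and tin protoporphyrin and 0.00611% (1 gene) between zinc and tin protoporphyrin. At an unadjusted p under 0.05 there were 7, 0 and 1 members in the same order, beside 32.2%, 13.1% and 13.3% of all genes. The count over all genes between HPPE and zinc protoporphyrin fell from 2078 to 173 without zinc protoporphyrin replicate 3, and that between zinc and tin protoporphyrin rose from 1 to 1453 without tin protoporphyrin replicate 2. A p above the threshold does not show that the compounds act alike, so the intervals are given below.

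Between zinc and tin protoporphyrin the member with the smallest p was SPRY1, with 35.4, 33.6 and 28.3 CPM against 39.0, 37.5 and 38.7 CPM. The groups did not overlap, and the log2 difference of zinc minus tin protoporphyrin was -0.28 ± 0.10 (95% interval -0.50 to -0.06, edgeR adjusted p = 0.353). Once the library axis described below was added to the fit, the difference was -0.28 and was called (adjusted p = 0.021). DUSP5 was also lower with zinc protoporphyrin in all 3 libraries, at -0.40 with an interval of -0.95 to 0.15. For SPRY4 the difference was -0.02 (-0.18 to 0.15), and for DUSP4 0.07 (-0.13 to 0.26). For DUSP1 the difference was -0.23 (-0.55 to 0.10), and for DUSP6 -0.22 (-0.44 to 0.00). The remaining 4 members had differences between -0.13 and 0.11.

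HPPE and tin protoporphyrin gave close values for SPRY1, with a log2 difference of HPPE minus tin protoporphyrin of -0.01 and a 95% interval of -0.21 to 0.20. The largest differences were 0.20 for DUSP5 (-0.29 to 0.70), 0.19 for DUSP1 (-0.11 to 0.50) and -0.18 for DUSP4 (-0.37 to 0.02). Every member's libraries overlapped between these groups, and the smallest edgeR adjusted p was 0.428. Between HPPE and zinc protoporphyrin the libraries of 7 members did not overlap, 5 higher and 2 lower with HPPE, where 19% of all genes were higher and 17.7% lower in this way. DUSP1 was higher with HPPE by 0.42 ± 0.16 on the log2 scale (interval 0.09 to 0.75, edgeR adjusted p = 0.0800), SPRY1 by 0.27 ± 0.11 (0.05 to 0.49, 0.0875) and SPRY2 by 0.26 ± 0.10 (0.05 to 0.47, 0.0796). DUSP4 was at -0.25 ± 0.09 (-0.44 to -0.05, adjusted p = 0.0824), the opposite sign to DUSP1. DUSP1, SPRY2 and DUSP4 were called when only the groups HPPE and zinc protoporphyrin were fitted (adjusted p = 0.0178, 0.0493 and 0.0106). HPPE libraries had negative length trends (-0.47 to -0.10) and zinc protoporphyrin libraries positive ones (0.22 to 0.57), so the length trend and the group cannot be told apart in this pair. In the fit of all groups, offsets for length and GC content moved the difference of DUSP1 from 0.42 to 0.24, that of SPRY2 from 0.26 to 0.16 and that of DUSP4 from -0.25 to -0.19, none of them called with or without the offsets.

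**Figure D3:**
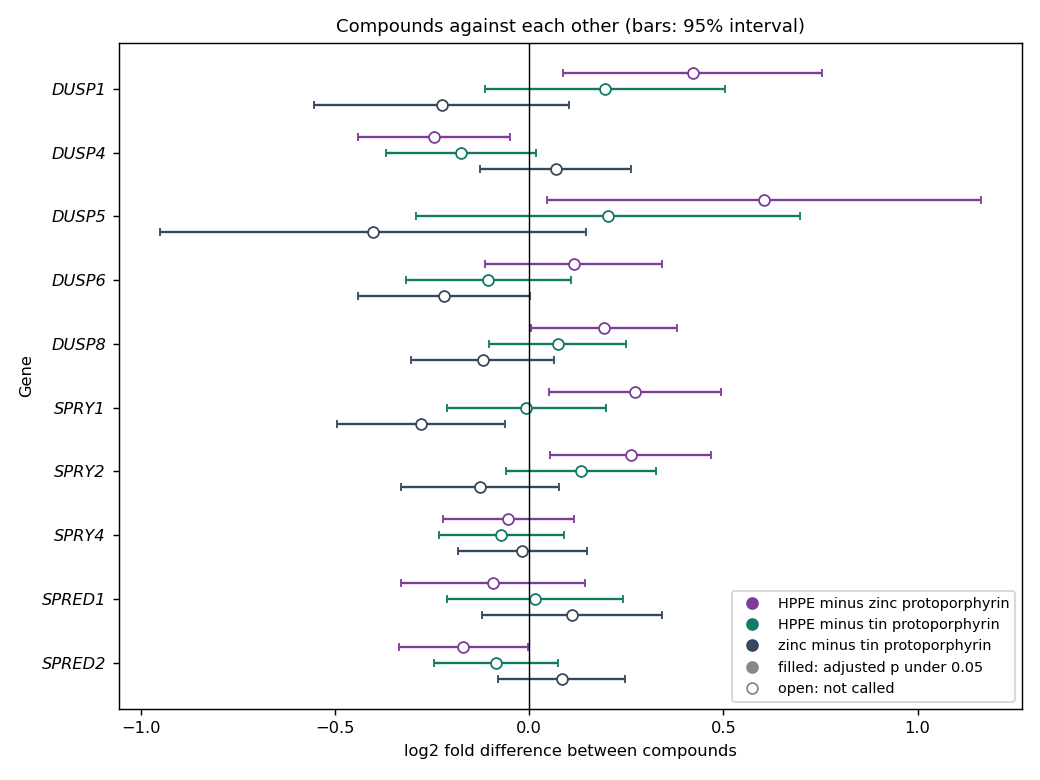
Log2 difference between compounds for each member (x axis) with its 95% interval, for HPPE minus zinc protoporphyrin, HPPE minus tin protoporphyrin and zinc minus tin protoporphyrin. All points are open because no adjusted p was under 0.05; the SPRY1 interval for HPPE minus tin protoporphyrin is centred close to 0, and that for zinc minus tin protoporphyrin runs from -0.50 to -0.06.

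The calls with the control were also read against the spread between libraries of the same group, which the length trend between groups does not enter. A term built from that spread cannot remove a length trend that lies between groups. The length trends ran from -0.46 to 0.44 in the DMSO libraries, beside -0.47 to -0.10 with HPPE, 0.22 to 0.57 with zinc protoporphyrin and -0.54 to 0.52 with tin protoporphyrin. For a rise of 1 SD in the library axis, the first principal component of the deviations from the group means, the members shifted by 0.21 for DUSP5, -0.13 for SPRED1, 0.10 for DUSP1, -0.09 for DUSP4 and 0.08 for SPRY1 in log2 CPM. SPRY4, DUSP6 and DUSP8 shifted by at most 0.01, where the median absolute shift of all genes was 0.08. With the axis as a term, the log2 fold changes of SPRY1 were 1.72 with HPPE, 1.45 with zinc protoporphyrin and 1.73 with tin protoporphyrin. Those of SPRY4 were 0.43, 0.46 and 0.50. With offsets for length and GC content SPRY1 stood at 1.69, 1.52 and 1.74, and DUSP1 with HPPE moved from 0.94 to 0.83. In both of these fits DUSP1 and SPRY2 were also called with zinc protoporphyrin, DUSP1 at 0.46 and 0.59 and SPRY2 at 0.29 and 0.37.

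**Figure D4:**
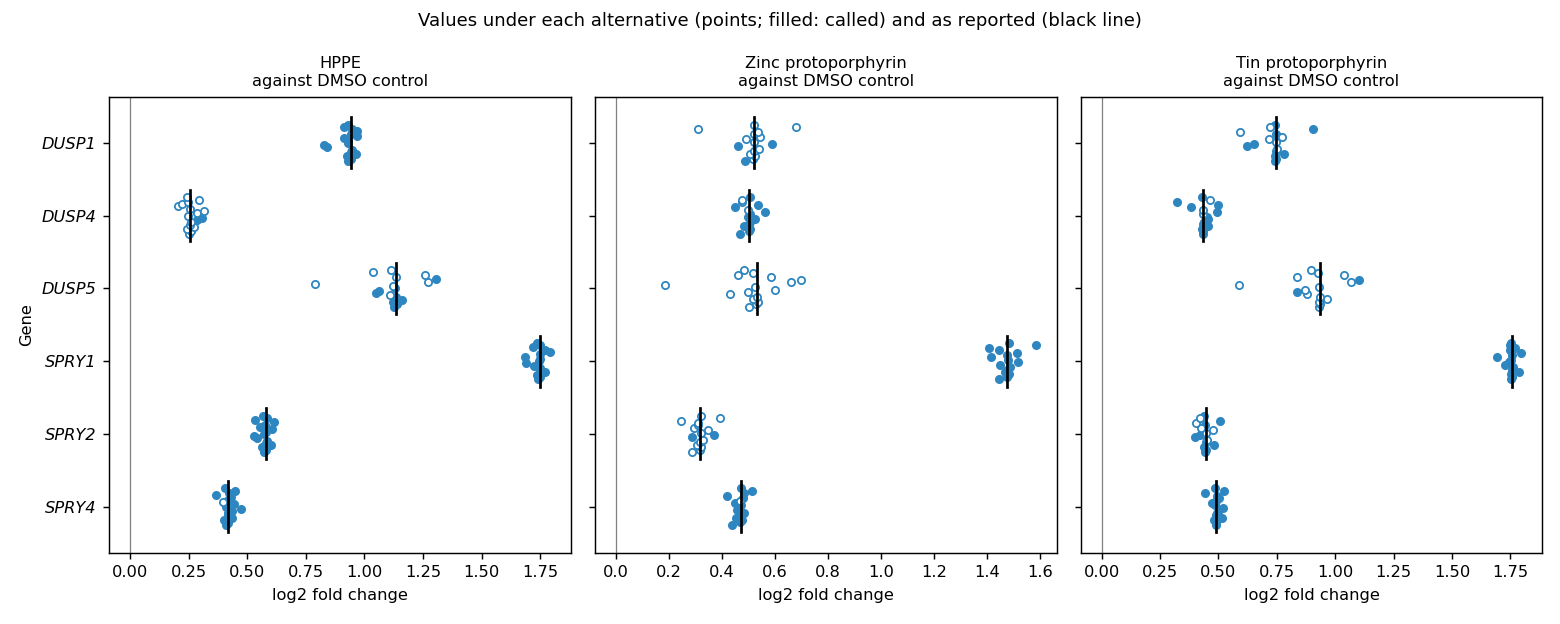
Log2 fold change over the DMSO control (x axis) of the 6 members called with any compound, as reported (black line) and under each alternative fit (points, filled where called). All SPRY1 points are filled and lie between 1.41 and 1.80, whereas the DUSP5 points with HPPE run down to 0.79 and many are open.

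Close relatives of the members were listed too. Of 7 other MAPK phosphatase, Sprouty and SPRED genes (DUSP2, DUSP7, DUSP9, DUSP10, DUSP16, SPRY3 and SPRED3), 5 were tested. None was called with HPPE or zinc protoporphyrin and 1, SPRED3, was called higher with tin protoporphyrin (25.8 ± 3.76 CPM in the control and 37.99 ± 1.35 with tin protoporphyrin, SD, n = 3; log2 fold change 0.50, edgeR adjusted p = 0.0309). All genes were called higher at 2.57%, 1.84% and 1.9%, so counts over 5 genes say little. The SPRED3 call was lost in 6 of 16 alternatives. The median log2 fold change of these 5 genes was 0.18, 0.15 and 0.07 with HPPE, zinc and tin protoporphyrin.

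Upstream of the members, 17 of 18 listed receptor tyrosine kinases were tested. With HPPE 1 was called higher and 2 lower, with zinc protoporphyrin 0 and 1, and with tin protoporphyrin 1 and 2. Of all genes, 2.57%, 1.84% and 1.9% were called higher and 1.47%, 0.415% and 0.379% lower with HPPE, zinc and tin protoporphyrin. PDGFRB, a platelet-derived growth factor receptor, rose with HPPE (log2 fold change 0.49, edgeR adjusted p = 5.40e-04) and tin protoporphyrin (0.34, 0.0160). KIT, the stem cell factor receptor, fell with HPPE (-1.04, adjusted p = 0.00572) and tin protoporphyrin (-0.94, 0.0117). PDGFRA fell with zinc protoporphyrin (-0.48, adjusted p = 0.00720) and tin protoporphyrin (-0.33, 0.0415). ALK, a receptor mutated in some neuroblastomas, fell with HPPE (-0.39, adjusted p = 0.0278), a call lost in 7 of 17 alternatives. Of 17 genes listed as growth factor ligands, 8 were tested. With HPPE, zinc and tin protoporphyrin, 2, 1 and 3 of them were called higher and none lower. The counts for HPPE and tin protoporphyrin include VGF, which is induced by growth factors and is not a receptor tyrosine kinase ligand. VGF, a growth factor-inducible neuropeptide precursor, went from 529 ± 73.4 CPM to 1259 ± 36.5 with HPPE (log2 fold change 1.26, edgeR adjusted p = 1.95e-04) and 987 ± 189 with tin protoporphyrin (0.91, 0.00535). HBEGF, a ligand of the EGF receptor, rose with HPPE (0.68, adjusted p = 0.0396) and tin protoporphyrin (0.84, 0.0140), and NRG1, a ligand of ERBB receptors, rose with zinc (0.56, 0.0261) and tin protoporphyrin (0.63, 0.00609). Several of these calls were lost in some of the alternatives: with tin protoporphyrin PDGFRA in 11 of 16, PDGFRB in 5, KIT and HBEGF in 3 each and NRG1 in 2, with zinc protoporphyrin NRG1 in 6 of 16 and PDGFRA in 1, and with HPPE HBEGF in 7 of 17.

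Calls among the genes of the kinases themselves stand beside 2.57% of all genes called higher and 1.47% called lower with HPPE. The shares were 1.84% and 0.415% with zinc protoporphyrin, and 1.9% and 0.379% with tin protoporphyrin. Among 22 adaptor, RAS, RAF, MEK and ERK pathway genes, all tested, 0 were called higher and 1 lower with HPPE, and none with zinc or tin protoporphyrin, where 3 and 1 had an unadjusted p under 0.05. The gene called was RPS6KA2, a kinase downstream of ERK (log2 fold change -0.30, edgeR adjusted p = 0.0348), lost in 8 of 17 alternatives. Of 17 JNK and p38 cascade kinases 1 was called lower with HPPE and none with the protoporphyrins, where 1 and 2 had an unadjusted p under 0.05. It was MAP2K6, an activator of p38, which went from 145 ± 30.5 CPM to 65.04 ± 0.57 with HPPE (-1.19, edgeR adjusted p = 2.62e-05) and was at 114 ± 18.2 CPM with tin protoporphyrin (-0.38, 0.141). Among 14 other brakes on receptor and RAS signalling, 1 was called higher with each compound and none lower. That gene was ERRFI1, an inhibitor of the EGF receptor, with log2 fold changes of 0.74 with HPPE (edgeR adjusted p = 2.11e-04), 0.65 with zinc protoporphyrin (0.00263) and 1.09 with tin protoporphyrin (3.79e-06).

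Downstream, 14 of 16 genes listed as following ERK activity were tested. With HPPE 6 were called higher and 1 lower, with zinc protoporphyrin 2 and 1, and with tin protoporphyrin 5 and 1. The shares of all genes called higher and lower were 2.57% and 1.47%, 1.84% and 0.415%, and 1.9% and 0.379% in that order. The median log2 fold change of the list was 0.23, 0.13 and 0.24. EGR1, an immediate early transcription factor, went from 15.6 ± 3.72 CPM to 41.9 ± 0.78 with HPPE (log2 fold change 1.32, edgeR adjusted p = 1.77e-05), 24.6 ± 5.52 with zinc protoporphyrin (0.45, 0.131) and 26.2 ± 1.99 with tin protoporphyrin (0.64, 0.0218). FOSL1, a member of the AP-1 family, rose from 2.87 ± 0.65 CPM to 12.5 ± 0.77 with HPPE (2.16, 8.18e-05) and 8.33 ± 1.76 with tin protoporphyrin (1.58, 0.00327), with 5.98 ± 1.99 in the zinc protoporphyrin libraries (0.96, 0.109). EPHA2, an ephrin receptor, rose with all 3 compounds (0.70, 0.51 and 0.71). ETV1, an ETS factor, fell with all 3 (-0.67, -0.55 and -0.52, edgeR adjusted p = 8.56e-04, 0.0115 and 0.00782), the opposite direction to SPRY1 and SPRY4. PHLDA1 completed the 2 called higher with zinc protoporphyrin (0.79, edgeR adjusted p = 0.0343). PHLDA1 (0.94, edgeR adjusted p = 0.00535) and ETV4 (0.39, 0.0339) completed the 5 with tin protoporphyrin. The 6 with HPPE were completed by PHLDA1 (0.73, edgeR adjusted p = 0.0285), ETV4 (0.43, 0.0136) and IER2 (0.59, 0.0177). The tested genes not called with HPPE were ETV5 (0.11), CCND1 (0.13), FOS (0.33), ARC (0.06), SRF (-0.08), ELK1 (-0.19) and MYC (-0.37). PHLDA1, ETV4, IER2 and these uncalled genes were named after their values were seen. With zinc protoporphyrin the EPHA2 call was lost in 6 of 16 alternatives and the ETV1 call in 3, and with tin protoporphyrin the EGR1 call was lost in 4, the ETV1 call in 3 and the FOSL1 call in 1.

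**Figure D5:**
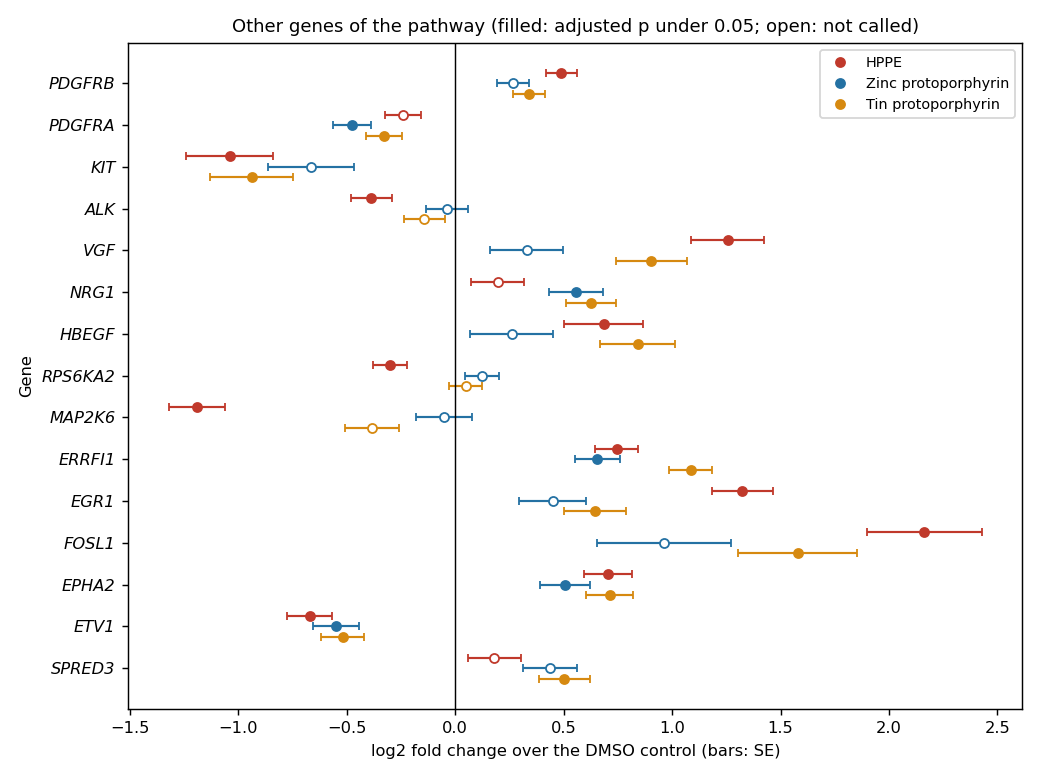
Log2 fold change over the DMSO control (x axis, bars: SE) of the named pathway genes outside the 10 members, for HPPE, zinc protoporphyrin and tin protoporphyrin; filled points were called. FOSL1 reaches 2.16 with HPPE and ERRFI1 is filled for all 3 compounds, while KIT, PDGFRA and ETV1 lie below 0.

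The pattern of each called member over the 12 libraries was set beside those of 15883 tested genes with a mean of at least 1 CPM, by Pearson correlation of log2 CPM. These values describe libraries that share depth differences and the length trend, and carry no test. SPRY1 was most like INSYN2B (r = 0.990), KLF6 (0.985) and TFPI2 (0.977). KLF6, a zinc-finger transcription factor, stood at 56.6 ± 2.23 CPM in the control and 106 ± 2.44, 95.5 ± 7.66 and 108 ± 3.59 CPM with HPPE, zinc and tin protoporphyrin. DUSP1 and SPRY2 had each other among their 3 nearest genes (r = 0.965), and both had ACTG1, a cytoplasmic actin (r = 0.963 and 0.972), and CCN1, a matricellular protein (r = 0.950 and 0.958). ACTG1 stood at 1470 ± 73.0 CPM in the control and 2408 ± 146 with HPPE. SPRY4 was most like FAM30A (r = 0.960), CAVIN1 (0.953) and UHRF1 (0.946). For DUSP4 the nearest genes were NAV2 (0.969), BCAT1 (0.967) and PHLDB2 (0.963), and for DUSP5 they included LYL1 (0.924) and PRRX2 (0.915).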

How the data were processed

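The authors deposited 1 table of raw counts, whole numbers of reads for each gene with no normalization, judged from its values. The submitters' processing notes name fastp 0.21.1, STAR 2.7.7a, featureCounts and the build GRCh38. The annotation and the strand setting are not given in the sources used here. No column fell outside the 12 samples, and 60481 of 60710 Ensembl identifiers matched a symbol.

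Genes were filtered with filterByExpr by group, leaving 16366 with 99.6% of counts. A model with 1 mean for each of the 4 groups was fitted with edgeR 4.0.16 (R 4.3.3; TMM scaling, robust glmQLFit), tested two-sided with glmQLFTest and adjusted over all of these genes (Benjamini-Hochberg). The SE is the log2 fold change over the square root of F, and 95% intervals are for single genes, unadjusted. CPM are computed from the deposited counts, with SD over 3 libraries. Depth limits low genes: 3 counts, taken as the floor, were 0.328 CPM in the deepest library and 2.24 CPM in the shallowest, for counting error only. The procedure was tested on simulated counts. HPPE replicates 2 and 3 were the most alike pair, with a chi-square per degree of freedom of 1.10 against 1.45 to 15.0 in the other pairs. The labels list them as separate samples and they were kept as 2 libraries, with their sum as an alternative.

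The members and the lists were chosen with earlier results of these data known. From each other list, the rule named the genes called with any compound, at most the 4 with the smallest p. Further genes listed as following ERK activity were named after their values were seen. For each called member the 3 genes most alike over the libraries were named. Some genes that these rules pick are not reported here. Gene positions, exon lengths and transcript GC are from GENCODE 29. Alternatives were other filters, RLE factors, unscaled library sizes, non-robust fitting, DESeq2 1.42.0, the compared groups alone, the replicate number as a block, a library axis as a term, offsets for length and GC content (lowess, span 0.3), HPPE replicates 2 and 3 summed, and the removal of each library. Length and GC were known for 16185 genes (98.9%).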

Additional observations from a re-analysis of the deposited data

How the results depend on the processing

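Of 990 values of the members under an alternative, 920 kept their sign and their side of the threshold, 28 lost a call, 26 gained one and 16 changed sign. The number of members called higher with HPPE was 5 as reported, 4 with the replicate block, 4 with HPPE replicates 2 and 3 summed, 7 with the library axis and 3 to 5 when a library was left out. With zinc protoporphyrin it was 3 as reported, 3 with the block, 1 to 3 when a library was left out, and 5 with the library axis as a term or with length and GC offsets. For tin protoporphyrin it was 5 as reported, 3 with the block, 2 with the compared groups only, 7 with the library axis, and 2 to 6 when a library was left out. Among the 4 groups it was 5, with 8 under the library axis and 2 to 6 when a library was left out. Between HPPE and zinc protoporphyrin 0 members were called higher or lower as reported; without a filter 1 was higher, with the compared groups only 2 were higher and 1 lower, with the library axis 4 were higher and 2 lower, and leaving out a library gave 0 to 1 higher. The axis also called 1 member lower in HPPE against tin and in zinc against tin protoporphyrin. The axis is built from the same libraries' deviations, so by construction it shrinks the spread that each call is judged against. Over all genes the axis moved the counts from 662 to 2672 for HPPE, 369 to 4158 for zinc and 373 to 2207 for tin protoporphyrin. The lowest counts over settings other than leaving out a library were 384 (HPPE replicates 2 and 3 summed), 133 (block) and 131 (compared groups only). Leaving out a library gave 284 (HPPE replicate 2) to 1034 (DMSO replicate 3) for HPPE, 72 (DMSO replicate 2) to 264 for zinc protoporphyrin, 146 (DMSO replicate 2) to 627 (tin replicate 2) for tin protoporphyrin, and 425 (HPPE replicate 2) to 3341 (tin replicate 2) among the 4 groups, where 1175 were reported. Summing HPPE replicates 2 and 3 took the 2078 genes called between HPPE and zinc protoporphyrin to 458 and the 238 between HPPE and tin protoporphyrin to 119. Without HPPE replicate 2 the latter were 91.

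Replicate numbers did not pair the libraries: over 18 pairs with the same number the correlation of deviations ran from -0.68 to 0.52 (median -0.14), 5 were over 0.1, and 3 of 12 libraries correlated best with their own number. With the number as a block, calls lost were DUSP5 with HPPE (adjusted p = 0.0736) and DUSP1 (0.0604) and SPRY2 (0.0634) with tin protoporphyrin.

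The values that changed sign were all of results that were not called. Without each library in turn, SPRED1 with zinc protoporphyrin ran from -0.13 to 0.064, in HPPE minus zinc from -0.17 to 0.019, in zinc minus tin from -0.0083 to 0.18 and in HPPE minus tin from -0.039 to 0.065 on the log2 scale. SPRY4 in zinc minus tin ran from -0.068 to 0.025, SPRY1 in HPPE minus tin from -0.033 to 0.014 and DUSP4 in zinc minus tin from -0.0016 to 0.17. SPRED2 with tin protoporphyrin ran from -0.00093 to 0.085, and with zinc protoporphyrin ALK ran from -0.11 to 0.038 and MAP2K6 from -0.17 to 0.10. With the library axis SPRED1 with zinc protoporphyrin went to 0.027. With length and GC offsets SPRY4 in HPPE minus zinc went to 0.0076, and SPRED1 to 0.052 in HPPE minus zinc and to -0.032 in zinc minus tin. The cause was not tested.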
